A study of Mus musculus with 4 samples.

Results

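The BTG and TOB genes encode a small family of antiproliferative proteins that share an amino-terminal domain. The 5 members described here, Btg1, Btg2, Btg3, Tob1 and Tob2, were chosen by gene symbol. All 5 were listed in the deposited table, with 7 of its 24746 transcripts and among its 16709 gene symbols. The cells were 3T3-L1 preadipocytes, a mouse fibroblast-like cell line that can be turned into adipocytes, grown in DMEM with 10% serum. One group received Nutlin-3a at 25 µM for 24 h and the other a matching amount of its solvent DMSO in parallel. Nutlin-3a is a small molecule that blocks MDM2, the ubiquitin ligase that keeps p53 low. Each group held 2 biological replicates, but for each transcript the authors' table held only 1 FPKM per group (fragments per kilobase of a transcript, relative to the size of the library). No value per library was used, so no difference below could be set against the spread between replicates, and none was tested. The sequencing depth of the libraries is unknown from the table.

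BTG and TOB proteins have no enzyme activity that is known to drive their effect. They act as adaptors: the shared domain binds the nucleases CNOT7 and CNOT8 of the CCR4-NOT complex, which shortens the poly(A) tails of messenger RNAs and so speeds their decay. Forced expression of the proteins slows entry into S phase in many cell types, and Btg2, also named Tis21 and Pc3, is a well-known p53 target as well as an immediate early gene. Tob1 and Tob2 carry a long carboxy-terminal region that binds the poly(A)-binding protein PABPC1, while Btg1 and Btg2 are short and also bind the arginine methyltransferase PRMT1.

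The group labels were set beside a p53 target, and the cell type beside its marker genes. Cdkn1a, the p21 gene and a p53 target, had 386 FPKM with Nutlin-3a and 35.2 FPKM with DMSO. Trp53, the p53 gene, had 63.1 and 54.5 FPKM. Mdm2, the target of the compound, is also a p53 target. It had 773 FPKM with DMSO and was listed at 0 with Nutlin-3a, against the direction of Cdkn1a. A listed 0 need not mean absence, since it may stand for an estimate that failed. Of 11 markers of preadipocytes and fibroblasts, 10 had at least 1 FPKM in both groups, and Cd34 did not (0.0187 and 0.186 FPKM). Their summed level was 4590 FPKM with Nutlin-3a and 12903 FPKM with DMSO, to which the calcium-binding protein gene S100a4 gave 2250 and 7580 FPKM. The markers did not all fall together. Dlk1 was higher with Nutlin-3a (623 FPKM, against 513 FPKM with DMSO), while each of the other markers on this list was lower. The part of the difference in summed level in the results below was not tested. Among markers of mature adipocytes, Fabp4 was the one above 1 FPKM (8.65 and 42.0 FPKM). Summed levels of macrophage, endothelial, epithelial and muscle markers lay between 1.14 and 8.25 FPKM in Nutlin-3a and between 0.026 and 5.27 FPKM in DMSO.

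Btg2 and Tob1 were higher in Nutlin-3a, Btg1 and Tob2 differed by less than 2-fold, and Btg3 was near 0 in both groups (bar plot of the members). A gene was compared if its mean FPKM over both groups was at least 1 and neither value was 0, which 4 of the 5 members passed. It was called higher or lower at a difference of 2-fold or more in FPKM + 1, where the added 1 is a pseudocount. Among all 10331 genes compared, 6.62% were called higher in Nutlin-3a and 6.14% lower. Of the 4 members compared, 2 were called higher and 0 lower. FPKM is a share of the sequenced fragments, so a change of a transcript per cell and a change of the other RNA around it cannot be told apart.

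**Figure D1:**
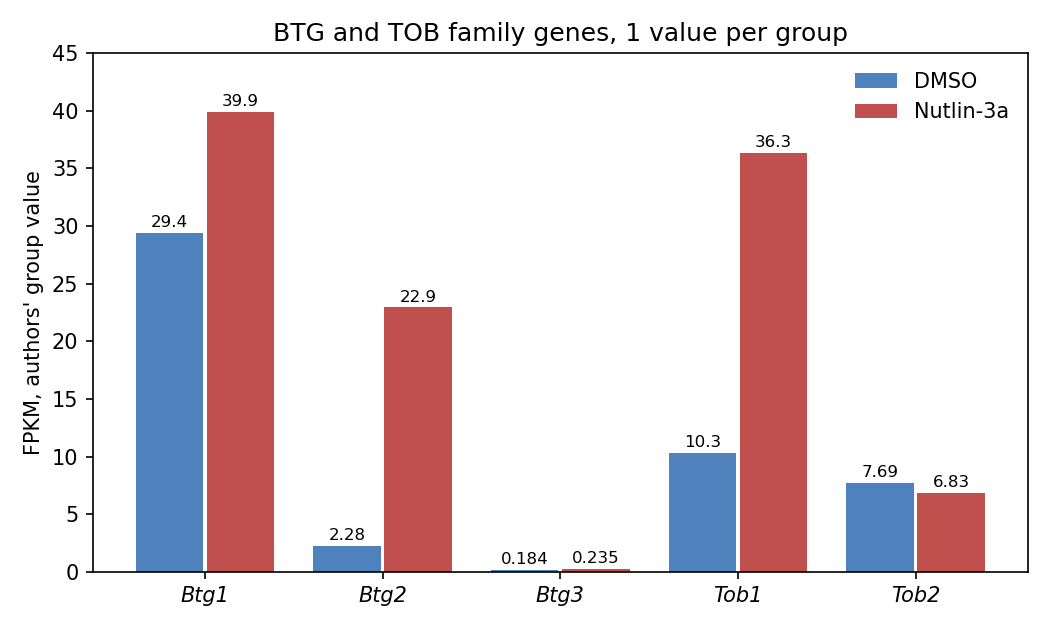
FPKM of the 5 family genes (vertical axis, linear from 0) in DMSO (blue) and Nutlin-3a (red), 1 authors' value per group and therefore without error bars. The Nutlin-3a bar stands 10.1 times as high as the DMSO bar for Btg2 and 3.51 times for Tob1. For Btg1 it stands 1.36 times as high and for Tob2 0.889 times.

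The promoters of Btg2 and Tob1, the members that were called higher, are shown as RefSeq gives them (GRCm38.p6, the assembly also named mm10). Each is the 250 bases before the transcription start on the gene's own strand, and capitals mark matches, on either strand, to CCAAT, to the GC box GGGCGG, to the TATA box TATAAA and to the cyclic AMP response element TGACGTCA. Btg2 lies on the minus strand, and its window is chr1:134079156-134079405. The window of Tob1, on the plus strand, is chr11:94211204-94211453.

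Btg2: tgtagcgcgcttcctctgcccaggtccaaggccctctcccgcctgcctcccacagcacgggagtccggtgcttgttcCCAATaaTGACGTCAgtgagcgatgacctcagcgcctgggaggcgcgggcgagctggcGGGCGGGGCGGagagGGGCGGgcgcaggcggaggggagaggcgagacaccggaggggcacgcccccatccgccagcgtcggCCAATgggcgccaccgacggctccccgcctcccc

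Tob1: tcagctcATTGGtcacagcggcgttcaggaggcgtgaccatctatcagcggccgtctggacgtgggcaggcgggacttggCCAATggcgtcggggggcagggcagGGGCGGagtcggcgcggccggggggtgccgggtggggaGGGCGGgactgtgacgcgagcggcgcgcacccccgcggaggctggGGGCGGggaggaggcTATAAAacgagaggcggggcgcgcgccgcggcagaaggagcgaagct

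The window of Btg2 held CCAAT at -173 and -34 and GGGCGG at -115, -110 and -100, counted from the first base of the match with -1 as the base before the start. Matches at -115 and -110 overlap by 1 base. Btg2 also held TGACGTCA at -166, a motif added to the search after the sequence had been seen, and it had no TATAAA. The window of Tob1 held CCAAT at -170 and, on the opposite strand, at -243, GGGCGG at -145, -107 and -62, and TATAAA at -47. Both windows thus held CCAAT and the GC box.

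The same letters were searched in the windows of the other members and in 32817 mouse promoters of that length. Btg1 (chr10:96616751-96617000) had 1 CCAAT, 2 GGGCGG and a TATAAA at -26. Tob2 (chr15:81858327-81858576) had 2 GGGCGG and neither CCAAT nor TATAAA. RefSeq gives 2 start sites for Btg3, and both of their windows held 1 CCAAT. One of these windows also held 2 GGGCGG, and the other none. CCAAT together with the GC box was therefore not particular to Btg2 and Tob1. Of all promoters, 33.8% held CCAAT, 32.7% GGGCGG, 12.4% TATAAA and 1.55% TGACGTCA. The E-box CACGTG, present in 6.02% of promoters, matched in no member. The p53 half-site, searched as its exact consensus and present in 7.12% of promoters, also had no match in any of these windows. A match is a description of the letters, and the lack of one says only that they are not in this window.

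Btg2, the short family member induced by p53, was listed at 22.9 FPKM with Nutlin-3a and 2.28 FPKM with DMSO. That is a 10.1-fold higher level and a log2 ratio of 2.87 on the FPKM + 1 scale. It was the weakest of the 4 compared members in DMSO and stood above Tob2 in Nutlin-3a. By level it moved from rank 8567 of all 16709 symbols in DMSO to rank 2917 in Nutlin-3a. By the size of its ratio Btg2 was rank 25 of the 10331 genes compared, and 0.232% of them had a larger one. The value came from 1 transcript, on chromosome 1 from 134074865 to 134079155 (mm10), which spans the RefSeq gene. The GENCODE transcript there has 2 exons and 2743 bases, with a coding sequence of 158 codons, so most of it is untranslated.

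Tob1, whose protein was named for its binding to the growth factor receptor ERBB2, was listed at 36.3 FPKM with Nutlin-3a and 10.3 FPKM with DMSO. The level was 3.51-fold higher, with a log2 ratio of 1.72. In FPKM units this was the greatest gain in the family, 26.0 FPKM against 20.7 for Btg2. Tob1 had rank 156 by ratio among the genes compared, and 1.5% had a larger one. Its 1 listed transcript lies on chromosome 11 from 94211454 to 94215492 and overlaps a GENCODE transcript of 2 exons and 2288 bases that codes for 362 residues.

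Btg1, first found at a chromosomal breakpoint in a B-cell leukaemia, was the most abundant member in both groups. It had 39.9 FPKM with Nutlin-3a and 29.4 FPKM with DMSO, a 1.36-fold higher level and a log2 ratio of 0.43, inside the 2-fold limit. Of the genes compared, 25.8% had a larger ratio. Over all genes compared the median log2 ratio was 0.07 and the upper quartile 0.44, so Btg1 lay just under that quartile. Its transcript spans chromosome 10 from 96617001 to 96622811, with 2 exons and a coding sequence of 171 codons in 5001 bases. The X chromosome carries 2 copies related to Btg1, Btg1-ps1 and Btg1-ps2. The longest run of bases they share with the Btg1 transcript was 35 and 38, and neither symbol was among the rows used here.

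Tob2, the close relative of Tob1, was listed at 6.83 FPKM with Nutlin-3a and 7.69 FPKM with DMSO, a log2 ratio of -0.15. The level was thus 1.13-fold higher in DMSO, well inside the limit, and 64.7% of the genes compared had a larger ratio. With the trend of ratios on GC content removed, the log2 ratio of Tob2 was 0.02, so its direction is not settled. That setting used 56.7% GC, the median over its GENCODE transcripts. The single model given next has 53.4%, at which the ratio was not computed. Its transcript lies on chromosome 15 from 81848270 to 81858326, and the GENCODE model has 2 exons, 4151 bases and 345 codons. Tob1 and Tob2 transcripts shared no run of bases longer than 17, and Btg1 and Btg2 none longer than 20.

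Btg3, also named Ana, binds the S-phase transcription factor E2F1, and its row values cannot be read as a plain gene level. The sum over its symbol was 0.235 FPKM with Nutlin-3a and 0.184 FPKM with DMSO, under the minimum mean, so it was not compared. This sum joins different loci. At the Btg3 gene, on chromosome 16 from 78359860 to 78377181, one transcript had 0.0951 FPKM in Nutlin-3a and the other 0.00059 FPKM, and both were listed at 0 in DMSO. The remaining transcript, with 0.139 and 0.184 FPKM, lies on chromosome 17 from 50698681 to 50699884. GENCODE and RefSeq annotate a pseudogene there, Gm7334, from 50698688 to 50699443 in GENCODE.

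The 756 bases of Gm7334 were 100% identical to a stretch of the GENCODE Btg3 transcript, whose coding sequence is also 756 bases long. Fragments from within this stretch cannot be told apart by sequence, and the sources used here do not say how the authors' quantification divided them. The transcripts listed at the Btg3 gene carry the numbers 12624 and 12626, and a transcript numbered 12625 was not analysed here. Such gaps occurred in 611 of the 4406 gene models with more than 1 listed transcript (13.9%). The Btg3 level may therefore be incomplete. The gene of a nuclear protein that binds BTG3, Banp, had 3.62 FPKM with Nutlin-3a and 3.29 FPKM with DMSO.

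Btg4 belongs to the family by sequence but not to the 5 members. It is known from the oocyte, where it directs the clearance of maternal messenger RNA. Btg4 was listed at 0.542 FPKM with Nutlin-3a and 0.0305 FPKM with DMSO, under the minimum mean, where values near 0 are uncertain.

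Set side by side, only Btg2 and Tob2 changed places between the groups. In DMSO the order of the levels was Btg1, Tob1, Tob2, Btg2 and Btg3, and Btg1 stood 2.84-fold above Tob1 and 12.9-fold above Btg2. In Nutlin-3a the order was Btg1, Tob1, Btg2, Tob2 and Btg3, with Btg1 at 1.10-fold the level of Tob1 and 1.74-fold that of Btg2. With no spread between libraries, no pair of neighbours in either order is shown to differ. Summed over the 5 members, the family had 106 FPKM with Nutlin-3a and 49.9 FPKM with DMSO, a 2.13-fold higher level. Btg2 and Tob1 together made up 55.8% of the family's FPKM in Nutlin-3a and 25.3% in DMSO. The share of Btg1 was 37.5% in Nutlin-3a and 58.9% in DMSO, and that of Tob2 6.43% and 15.4%.

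**Figure D2:**
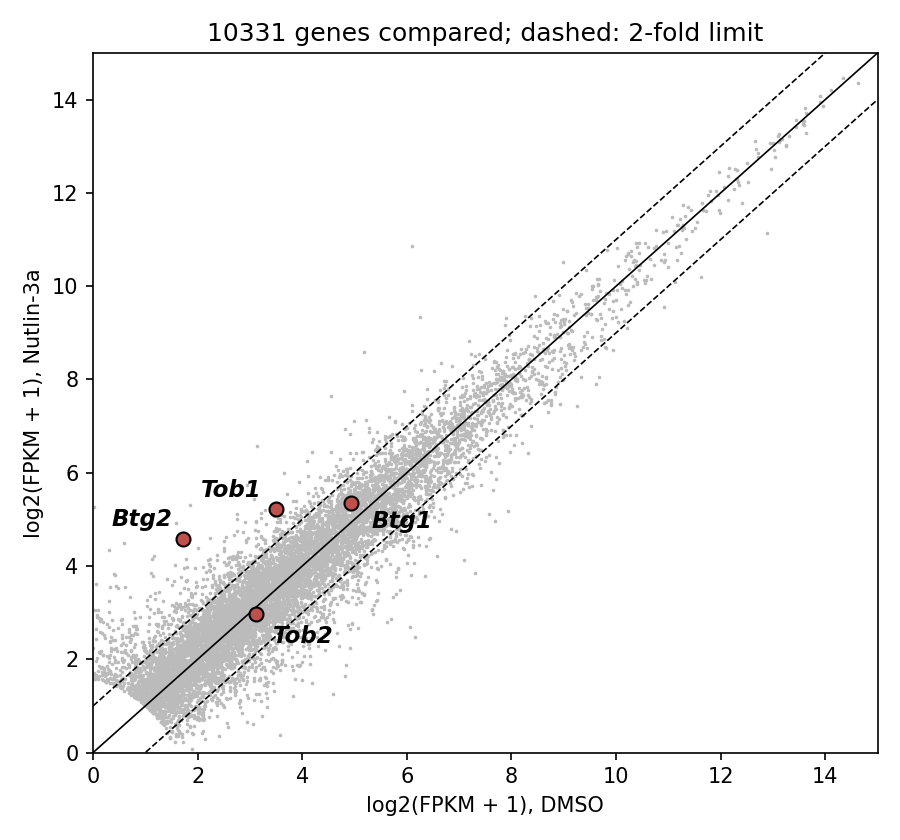
Level of each of the 10331 genes compared in DMSO (horizontal axis) and in Nutlin-3a (vertical axis), both as log2(FPKM + 1), with the line of equality and dashed lines at the 2-fold limit. Btg2 and Tob1 (red) lie above the upper dashed line with log2 ratios of 2.87 and 1.72, and Btg1 and Tob2 lie between the lines.

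Over 20 equal classes of transcript GC content, the median log2 ratio of the genes compared was 0.27 in the class with the least GC and -0.20 in the class with the most, so the members were set beside genes of like content. Btg2, with a GC content of 49.7%, was in a class whose median was 0.11. For Tob1 (45.7%) the class median was 0.15, for Btg1 (50.3%) it was 0.07 and for Tob2 (56.7%) it was -0.09. These contents are medians over the GENCODE transcripts of a symbol. The models described above have 43.1% for Btg1 and 53.4% for Tob2, so the class depends on the transcripts used. Classes with a median content of 42.2% and 43.7% had median log2 ratios of 0.25 and 0.22, and the class at 53.2% had -0.03. The ratios of Btg2 and Tob1 were far above their class medians, while Tob2 lay close to its own.

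The genes beside the members on the chromosomes were examined as well, 2 compared genes on each side, a choice made after the members' values were known. Of these neighbours, 13 lay within 2-fold, 3 were called lower and none was called higher, beside 6.14% lower and 6.62% higher over all genes compared. The farthest, Atp2b1, lay 2292 kb from Btg1. Next to Btg2, the gene of the collagen-binding proteoglycan fibromodulin, Fmod, ended 26.6 kb away and had 0.918 FPKM with Nutlin-3a and 3.33 FPKM with DMSO, and Prelp, another matrix proteoglycan gene, had 1.11 and 4.15 FPKM. On the other side Chil1, a chitinase-like protein gene, had 21.1 and 29.5 FPKM. Around Tob1, Spag9 (12.1 and 8.31 FPKM) and Luc7l3 (21.2 and 18.5 FPKM) were within the limit. Neither Btg2 nor Tob1 had a neighbour that was called higher, but so few genes cannot be set apart from the share over all genes. The other lower neighbour was Dcn, the decorin gene, 857 kb from Btg1, with 28.9 and 64.6 FPKM.

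Genes whose pair of group values was nearest to each member were sought among 9470 protein-coding genes, by the distance in log2(FPKM + 1) over both groups. With only a pair of values per gene this likeness is a description. For Btg2 the nearest were Gdf15, a secreted stress cytokine (29.3 and 1.998 FPKM in Nutlin-3a and DMSO, distance 0.36), and Bcl6, a transcriptional repressor (16.7 and 2.45 FPKM, distance 0.44). For Tob1 they were Pigf, of glycosylphosphatidylinositol anchor synthesis (35.6 and 10.7 FPKM), and Dnajb1, a heat shock co-chaperone gene (36.1 and 11.05 FPKM). Os9 and Lcmt1 were nearest to Btg1, and Rnf217 and Xpot to Tob2, all at a distance of at most 0.05. The genes nearest to Btg2 were farther from it than those nearest to the other 3 members were from theirs.

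The subunits of the CCR4-NOT complex, through which the family acts on messenger RNA, stayed within the 2-fold limit. All 12 on the list were compared, and 0 were called in either direction, beside 12.8% of all genes compared. So few genes cannot be set apart from that share. With the transcript of the highest mean in place of the sum, Cnot7 was called higher, with a log2 ratio of 1.28. One of its transcripts had 15.2 FPKM with Nutlin-3a and 5.69 FPKM with DMSO, the other 0.929 and 6.18 FPKM, so its sum joins transcripts that differed in opposite directions. The nucleases that BTG and TOB proteins bind were Cnot7 (16.1 FPKM with Nutlin-3a and 11.9 FPKM with DMSO) and Cnot8 (42.2 and 44.2 FPKM). The other pair of nucleases had lower levels, with 6.65 and 6.40 FPKM for Cnot6 and 2.25 and 1.61 FPKM for Cnot6l. Cnot1, the scaffold, had 13.6 and 11.6 FPKM, and Cnot3, a subunit of its regulatory module, 5.38 and 4.93 FPKM. The list's median log2 ratio was 0.24, beside 0.07 over all genes compared, and 10 of the 12 were above 0, beside 54.8% of all genes. Tnks1bp1, whose product associates with the complex and which is named for its value, had the lowest log2 ratio, -0.77. The 5 members summed to 106 FPKM with Nutlin-3a and 49.9 FPKM with DMSO, against 58.4 and 56.0 FPKM for Cnot7 and Cnot8. Btg2 and Tob1 made up 59.3 and 12.6 FPKM of the family sum. They were picked as the members called higher, so the rise of their part follows from that choice.

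Poly(A) tail factors were also within the limit, 10 of 10, where 12.8% of all genes compared were called in either direction. Pabpc1, the cytoplasmic poly(A)-binding protein gene and partner of TOB proteins, had 594 FPKM with Nutlin-3a and 405 FPKM with DMSO, and the nuclear Pabpn1 had 100.3 and 102 FPKM. Of 9 decapping and exonuclease genes compared, Dcps was the one called lower (32.9 and 79.0 FPKM). It encodes the scavenger enzyme that breaks down the cap left after decay. The median log2 ratios of these lists were 0.34 and 0.35. Among 14 RNA-binding proteins that recruit the CCR4-NOT complex to chosen messages, Cpeb2 (4.50 and 0.476 FPKM) and Cpeb4 (3.59 and 0.962 FPKM), which bind cytoplasmic polyadenylation elements, were called higher. Neither call held with a pseudocount of 5 (log2 ratios of 0.79 and 0.53) or with a mean FPKM of at least 5, under which neither was compared, and with the transcript of the highest mean Cpeb4 was also within the limit (0.86). The other 12 were within the limit, and the median was 0.24.

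Other binding partners of the family were mixed. Of 7 arginine methyltransferase genes compared, 0 were called, beside 12.8% of all genes compared in either direction. Prmt1, the partner of BTG1 and BTG2, had 86.6 FPKM with Nutlin-3a and 145 FPKM with DMSO. The next most abundant was Prmt2 (16.0 and 29.5 FPKM), called lower when its transcript of the highest mean stood for it (log2 ratio -1.50), and the list median was -0.18. Of 7 Smad genes compared, which encode the transducers of TGF-beta and BMP signals that TOB proteins bind, 2 were called higher. These were both inhibitory Smads, Smad7 (14.0 and 3.66 FPKM) and Smad6 (13.4 and 5.33 FPKM), the latter within the limit with a pseudocount of 5 (0.84). The BMP-responsive Smad1 had 10.9 and 5.50 FPKM and Smad5 4.35 and 6.58 FPKM, and the common partner Smad4 had 14.5 and 9.84 FPKM. The Smad median was 0.52.

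**Figure D3:**
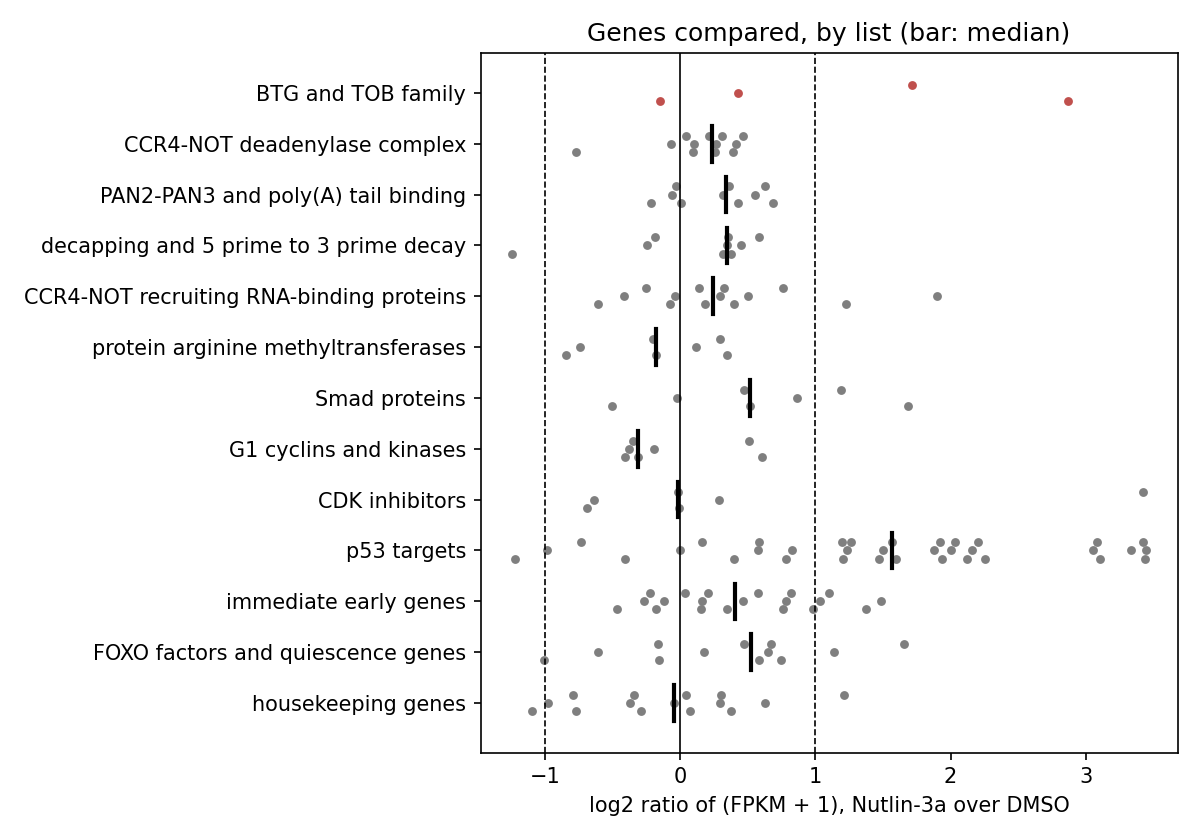
Log2 ratio of each compared gene (points) in the family (red) and in 12 gene lists (grey), with the median of each list as a bar and dashed lines at the 2-fold limit. The p53 targets have the highest median, 1.57. Their range, from -1.22 to 3.44, is wide enough to hold all 4 compared members. It also holds the quartiles of all genes compared, -0.33 and 0.44, so it shows no likeness of the members to these targets. The 12 subunits of the CCR4-NOT complex lie within the limit on this scale.

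Against other p53 targets, Btg2 was among the larger ratios. The list held 37 targets, Btg2 itself left out, and 2 of them were not compared because a group value was 0. These were Perp (0.0848 FPKM with Nutlin-3a and 0 with DMSO) and Mdm2 (0 and 773 FPKM). As listed, Mdm2 went the other way, but its 0 may stand for an estimate that failed. Of the 35 compared, 24 were called higher and 10 were within the limit. The lysosomal membrane gene Dram1 was called lower, though not with a pseudocount of 5 (-0.83). The list median was 1.57. A larger ratio than that of Btg2 was found in 7 of the 35, and a larger one than that of Tob1 in 16. Those with the largest ratios were Trp53inp1 (38.4 FPKM with Nutlin-3a and 2.62 FPKM with DMSO), Gtse1 (94.2 and 7.78 FPKM), Cdkn1a and Gdf15. Ccng1, the cyclin G1 gene, had 200 and 22.3 FPKM. On the per-length FPKM scale the level of Cdkn1a was above that of Btg2 in both groups.

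The G1 cell cycle genes on which the family is thought to act were within the limit. Of 7 G1 cyclin and kinase genes compared, 0 were called, beside 12.8% of all genes compared in either direction. So few genes cannot be set apart from that share. Their median log2 ratio was -0.31, and 2 were above 0, Ccnd2 (16.7 FPKM with Nutlin-3a and 11.4 FPKM with DMSO) and Cdk6 (3.41 and 1.89 FPKM). Ccnd1, the cyclin D1 gene that BTG2 is known to hold down, had 41.8 FPKM with Nutlin-3a and 55.9 FPKM with DMSO, and Cdk4 had 280 and 364 FPKM. Cdkn1a was the 1 of 6 compared inhibitors of cyclin-dependent kinases that was called.

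Btg2 belongs to the immediate early genes, which respond to growth factors within minutes. Of 20 others compared, 16 were within the limit and 4 were called higher, a larger share than the 6.62% over all genes compared. The 4 were Fos (7.29 FPKM with Nutlin-3a and 1.96 FPKM with DMSO), Atf3 (2.53 and 0.363 FPKM), Junb (109.7 and 50.5 FPKM) and Ier5 (33.7 and 15.9 FPKM). With a pseudocount of 5 only Junb kept its call, Fos and Atf3 were not compared at a mean FPKM of at least 5, and Ier5 was within the limit with the median ratio set to 0 (0.96). The median was 0.41, beside 0.07 over all genes compared, and the highest log2 ratio, 1.49 for Fos, was below that of Btg2. Of 12 FOXO factors and quiescence genes, among which FOXO3 is known to induce Btg1, 2 were called higher, Foxo3 (3.13 and 0.314 FPKM) and Gas6 (131 and 59.1 FPKM), and Foxo6 was called lower (1.36 and 3.74 FPKM). The log2 ratio of Foxo6, -1.01, was at the limit, and its call was lost with the GC trend removed (-0.74) and, like that of Foxo3, with a pseudocount of 5 or a mean FPKM of at least 5. On the list of housekeeping genes the median was -0.05, and Hprt, often used as a reference, was called higher (109.6 and 46.7 FPKM). Tob1 and Btg2 were above the log2 ratio of Hprt, 1.21.

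**Figure D4:**
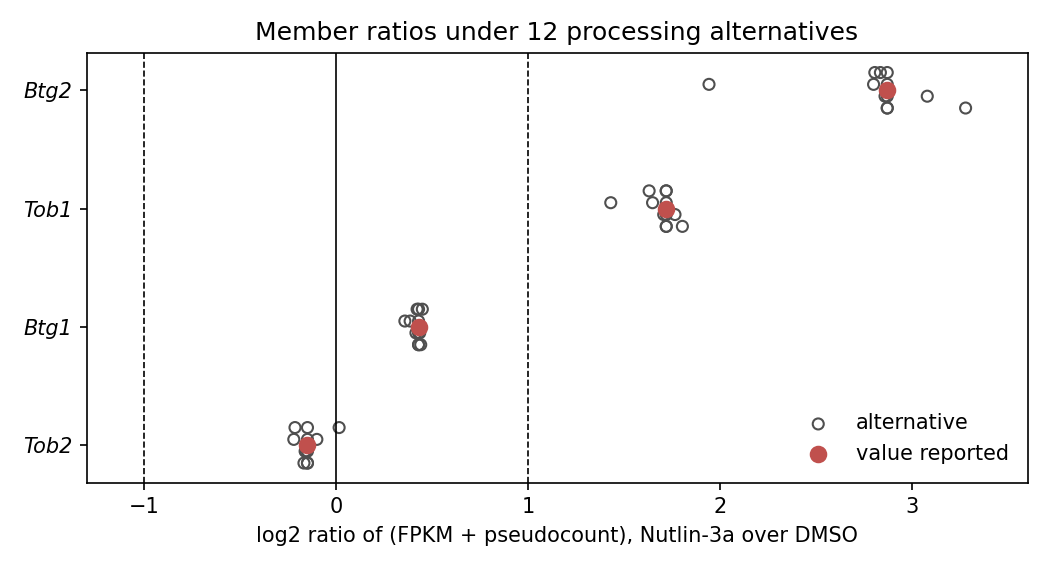
Log2 ratio of the 4 compared members (red point) and the same ratio under 12 alternative settings (open circles), with dashed lines at the 2-fold limit. Btg2 lies between 1.94 and 3.28 and Tob1 between 1.43 and 1.80 under all 12, and Btg1 and Tob2 stay inside the limit.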

How the data were processed

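Total RNA from 4 libraries (2 Nutlin-3a, 2 DMSO) was sequenced. The submitters' processing notes name TopHat2 2.0.11 and the build mm10. How FPKM was estimated and replicates were combined was not given in the sources used. The authors deposited FPKM values per transcript and group. The deposited log2 columns, headed as fold expression, restate log2 of each group's FPKM (deviation at most 0.0071) and were not used. Column prefixes NUT and DSM were read as Nutlin-3a and DMSO. Listed starts count from 0 and are printed counted from 1.

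FPKM was summed per symbol, a pseudocount of 1 was added, and genes with a mean FPKM of at least 1 and no 0 were compared by log2 ratio at a 2-fold limit (Python 3.11.15, pandas 2.3.3). The calling code was tested on simulated data, which says nothing of replicate error. Per list, up to 4 called genes with the largest ratios, otherwise the 2 most abundant, and set partners are named. A gene that this rule would name is not reported here. The members and lists were chosen with earlier results of these data known. GC content, as the median over transcripts, was found in GENCODE M21 for 96.2% of the genes compared. RefSeq promoters matched all 5 members. Transcripts were aligned locally with Biopython 1.88. Protein sequences were not used here.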

Additional observations from a re-analysis of the deposited data

How the results depend on the processing

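Under all 12 alternatives 2 members were called higher and 0 lower. The log2 ratio ran from 1.94 (pseudocount 5) to 3.28 (pseudocount 0.1) for Btg2, from 1.43 to 1.80 for Tob1, from 0.36 to 0.45 for Btg1 and from -0.22 to 0.02 for Tob2. Over all genes, 684 higher and 634 lower became 249 and 291 with a pseudocount of 5, 1839 and 1566 at a limit of 1.5-fold, and 201 and 154 at 3-fold, by construction of these limits and pseudocounts. With a mean FPKM of at least 5, where fewer genes were compared, 391 were higher and 466 lower, so that lower calls outnumbered higher ones. They also did so with the median ratio set to 0 (596 and 729) and after quantile normalization (606 and 709). Of 288 counts per list and setting, 248 stayed within 1.5 times the count reported and 40 did not. No paired analysis was possible because the table gives 1 value per group, and leaving out a replicate could not be run for the same reason. Low levels such as those of Btg3 and Btg4 rest on a depth that is unknown.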
